A study of Mus musculus with 8 samples.

Results

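The genes described here are 32 genes of the epidermis and hair follicle, followed in newborn skull bone of 4 Girk3 knockout (KO) and 4 wild-type (WT) mice. They were taken by symbol from a table of 49315 Ensembl gene IDs, and each of the 32 symbols matched 1 ID. The KO animals are labelled as lacking Girk3 (gene symbol Kcnj9), a subunit of G protein-gated inwardly rectifying potassium channels, throughout the body, per the study's title, and the others are labelled wild type. KO and WT stand for libraries so labelled throughout. Every animal in either group was a C57BL6 female aged 2 to 3 days, and RNA was prepared from whole frozen calvaria, the plates that form the roof of the skull. The labels describe neither the design of the knockout allele nor how scalp was separated from bone, and they name no agent or second allele. The study asks about bone mass after Girk3 loss, and these genes bear on how much skin RNA the bone libraries held and whether it moved with genotype.

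The epidermis is a layered epithelium. Its basal cells are attached to a basement membrane by hemidesmosomes and contain filaments of keratin 5 paired with keratin 14. As cells leave the basal layer they switch to keratin 1 paired with keratin 10, link to their neighbours through many desmosomes, and finally cross-link proteins such as involucrin, loricrin and the small proline-rich proteins into a cornified envelope. The transcription factor p63 is needed to form this tissue. Bone, cartilage and marrow contain no keratinised epithelium.

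The depth of the libraries was 45.1 M ± 7.92 M counts in KO and 45.6 M ± 2.89 M counts in WT (mean ± SD, n = 4 each), and single libraries ran from 35.4 M to 54.3 M. A single count was worth at most 0.0283 CPM (counts scaled to library size, before TMM scaling), and a floor of 3 counts at most 0.0848 CPM. Bone-forming cells were plainly sampled, since 11 osteoblast genes took 19.6% of all counts and Col1a1, the main collagen chain of bone, stood at 78420 ± 13178 CPM in KO and 85440 ± 7435 CPM in WT. Kcnj9 itself held 2, 5, 7 and 9 counts in KO replicates 1 to 4, against 0, 0, 1 and 4 counts in WT replicates 1 to 4, a sum of 23 in libraries labelled KO and 5 in libraries labelled WT. This direction goes against the loss of a transcript, the counts are few, and the table does not show whether they fall in the deleted part of the gene, so the labels are not checked by it. KO replicate 4 stood apart: it had counts in 28520 gene IDs from the smallest total, against 24545 to 25729 in the other 7 libraries. Skeletal muscle RNA also varied widely, with 19 muscle genes summing to between 39.4 and 3495 CPM per library; none of the 19 was called in edgeR (0 at an unadjusted p under 0.05), DESeq2 or limma-voom.

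Promoter sequences of 18 of the 32 genes were found in the RefSeq table (GRCm38.p6), each covering 250 bases before and 50 bases after an annotated start. Lamb3 and Dmkn have more than 1 window and were counted where any window held a motif, and the Krt14 window, which is included in the shares, lies inside the gene as annotated by GENCODE rather than at its start. The sequences of 4 of them are printed because they carry the contrast described below: Krt5 marks the basal layer and was nearly absent, Krt10 was the keratin with the most counts, and Ivl and Sprr1a belong to the cornified envelope and were nearly absent. Capitals mark the letters TATAAA (the core of a TATA box) and TGANTCA (the core bound by AP-1 factors), each searched on both strands.
Krt5 promoter, chr15:101712856-101713155, minus strand: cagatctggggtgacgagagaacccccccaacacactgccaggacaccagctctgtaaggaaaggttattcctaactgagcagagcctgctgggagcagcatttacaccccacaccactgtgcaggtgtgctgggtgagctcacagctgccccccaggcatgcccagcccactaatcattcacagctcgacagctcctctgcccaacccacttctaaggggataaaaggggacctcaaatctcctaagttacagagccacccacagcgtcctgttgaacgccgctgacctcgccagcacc
Krt10 promoter, chr11:99389315-99389614, minus strand: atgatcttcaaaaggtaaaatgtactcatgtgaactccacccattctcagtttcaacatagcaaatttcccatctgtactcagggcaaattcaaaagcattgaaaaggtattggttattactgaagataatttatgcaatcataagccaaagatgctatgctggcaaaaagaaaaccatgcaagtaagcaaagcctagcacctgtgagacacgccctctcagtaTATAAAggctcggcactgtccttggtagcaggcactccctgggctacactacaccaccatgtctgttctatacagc
Ivl promoter, chr3:92573686-92573985, minus strand: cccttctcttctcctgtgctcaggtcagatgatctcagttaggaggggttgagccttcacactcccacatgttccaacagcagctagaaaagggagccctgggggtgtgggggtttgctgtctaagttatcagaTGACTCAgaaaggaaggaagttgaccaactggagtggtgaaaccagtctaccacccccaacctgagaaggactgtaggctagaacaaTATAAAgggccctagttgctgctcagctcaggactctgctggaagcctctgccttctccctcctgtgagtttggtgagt
Sprr1a promoter, chr3:92485832-92486131, minus strand: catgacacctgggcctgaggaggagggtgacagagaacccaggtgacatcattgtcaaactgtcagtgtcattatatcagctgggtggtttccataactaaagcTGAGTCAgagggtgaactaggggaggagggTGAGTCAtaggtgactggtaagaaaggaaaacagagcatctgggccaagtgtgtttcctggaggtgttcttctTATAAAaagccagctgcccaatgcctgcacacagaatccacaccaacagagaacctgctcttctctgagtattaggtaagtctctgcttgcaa

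The Krt5 window held neither motif, the Krt10 window held TATAAA alone, and the Ivl and Sprr1a windows held both. Over the 18 genes, TATAAA occurred in 5 (27.8%) and TGANTCA in 6 (33.3%). Among all 32851 promoter windows of the table, the shares were 13.6% and 7.81%. Genes with TGANTCA were Ivl, Sprr1a, Flg and Dmkn, which failed the count filter, and Sbsn and Krtdap, which passed it. The paired p63-type core CATGNNNNNNCATG was in none of the 18 windows and in 0.712% of all windows.

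The first question is whether the libraries held epidermis at all, and the basal keratins were at or near 0 in both genotypes. Krt5 (ENSMUSG00000061527, chr15:101707070-101712898, GRCm38/mm10) had 3, 10, 1 and 8 counts in KO replicates 1 to 4, against 0, 0, 2 and 0 counts in WT replicates 1 to 4. Its partner Krt14 (ENSMUSG00000045545, chr11:100203162-100207548) had 1, 2, 0 and 5 counts in KO, against 1, 0, 0 and 0 counts in WT. Together the pair reached at most 0.354 CPM, in KO replicate 4. Krt15, a keratin of basal and bulge cells, and Krt17, a keratin of hair follicle and stressed epidermis, had at most 4 and 7 counts in any library.

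**Figure D1:**
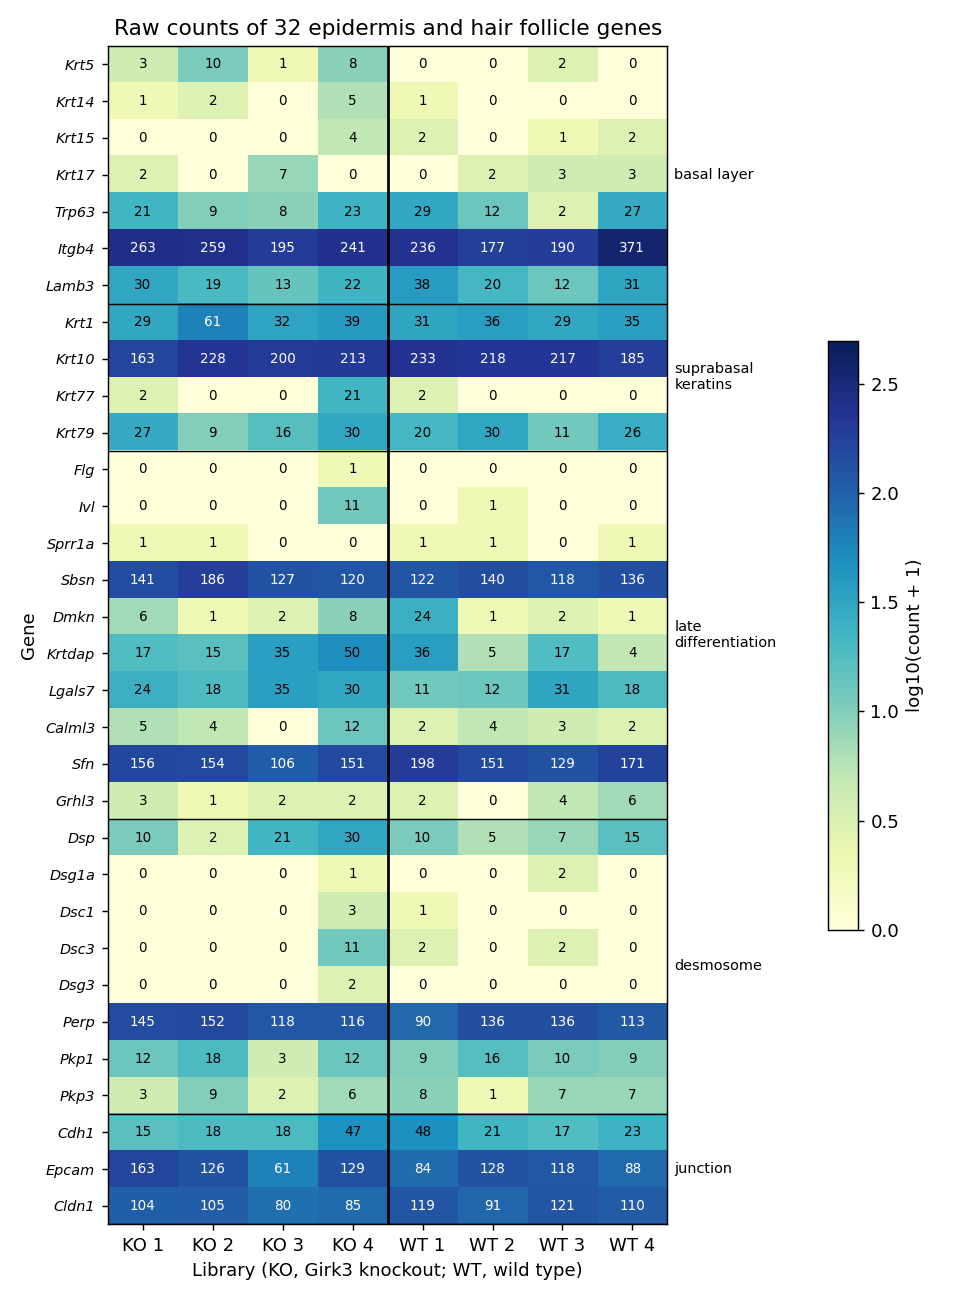
Raw counts of the 32 genes (rows, grouped by role) in each library (columns, KO left of the vertical line and WT right of it); shading is log10 of the count plus 1. The 7 genes Itgb4, Krt10, Sfn, Sbsn, Perp, Epcam and Cldn1 hold 61 to 371 counts in every library, while Krt5, Krt14, Flg and Ivl hold 0 to 11.

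The 10 late differentiation genes were divided. Sbsn, Sfn, Krtdap and Lgals7 passed the count filter and are described below, and the other 6 did not. Flg, which encodes filaggrin, the protein that bundles keratin in the outermost living cells, had 1 count in KO replicate 4 and none in the other libraries, which allows up to 3 counts in each of those. Ivl, encoding involucrin, had 11 counts in KO replicate 4, 1 in WT replicate 2 and none elsewhere. Sprr1a, a cornified envelope precursor that is strongly induced in stressed epithelium, had 0 or 1 count in every library. Calml3, a calmodulin-like protein of stratified epithelium, had at most 12 counts, Dmkn, a secreted protein of the suprabasal layers, at most 24, and Grhl3, a transcription factor of barrier formation, at most 6. Of the 32 genes, 14 were at 0 in at least 1 library and 9 were at 0 in at least 4.

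Desmosome genes were split along the same line. The desmosomal cadherins Dsg1a, Dsg3, Dsc1 and Dsc3, whose products join keratinocytes to each other, had at most 11 counts in KO replicate 4, none in KO replicates 1 to 3, and 0 to 2 counts in the WT libraries. Reads of Dsg1a can be shared with its near-identical copies Dsg1b and Dsg1c, so its own value is uncertain. Dsp, which encodes desmoplakin, the link between desmosomes and keratin filaments, had 10, 2, 21 and 30 counts in KO, against 10, 5, 7 and 15 in WT. The plakophilins, which cluster the cadherins, ranged from 3 to 18 counts in KO and from 9 to 16 in WT for Pkp1, and from 2 to 9 in KO and from 1 to 8 in WT for Pkp3.

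Against this background 7 of the 32 genes were present at a mean of 1 CPM or more, with at least 61 counts in every library. They were Itgb4, Krt10, Sfn, Sbsn, Perp, Epcam and Cldn1. Several of them, such as Itgb4, Epcam and Cldn1, are known from tissues other than skin. Even the highest of them, Itgb4, lay only at percentile 37 of mean CPM among the 17743 genes that passed the count filter, and Cldn1 lay at percentile 28. All 32 genes together took 0.00287% of the counts. Levels in bulk RNA cannot tell fewer cells of a type from less RNA per cell.

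Itgb4, the beta chain of the laminin-binding integrin alpha 6 beta 4 of hemidesmosomes and of Schwann and perineurial cells, was at 5.69, 4.59, 4.41 and 6.56 CPM in KO, against 5.31, 4.26, 4.25 and 7.68 CPM in WT. The highest value was in WT replicate 4 and the groups overlapped throughout. Krt10 (ENSMUSG00000019761, chr11:99385254-99389364) was at 3.53, 4.04, 4.52 and 5.79 CPM in KO, against 5.24, 5.24, 4.85 and 3.83 CPM in WT. Here the highest library was KO replicate 4 and the lowest KO replicate 1, so the WT values fell inside the KO range. Sfn, which encodes 14-3-3 sigma, a p53-inducible protein that restrains the cell cycle, was at 3.38, 2.73, 2.39 and 4.11 CPM in KO, against 4.45, 3.63, 2.88 and 3.54 CPM in WT, again with overlapping groups.

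Sbsn, encoding suprabasin, a secreted protein of differentiating keratinocytes, was the steadiest gene of the set. It was at 3.05, 3.30, 2.87 and 3.26 CPM in KO, against 2.74, 3.37, 2.64 and 2.82 CPM in WT, a coefficient of variation of 9.26% over the 8 libraries. Perp, a p53 target that encodes a membrane protein of desmosomes, was at 3.14, 2.7, 2.67 and 3.16 CPM in KO, against 2.02, 3.27, 3.04 and 2.34 CPM in WT. Epcam, an adhesion protein of many epithelia, was the most variable of the 7, at 3.53, 2.24, 1.38 and 3.51 CPM in KO, against 1.89, 3.08, 2.64 and 1.82 CPM in WT. Cldn1, a claudin that seals tight junctions, was at 2.25, 1.86, 1.81 and 2.31 CPM in KO, against 2.68, 2.19, 2.71 and 2.28 CPM in WT, where only WT replicate 2 and WT replicate 4 lay within the KO range. The highest library exceeded the lowest by 1.28-fold to 2.56-fold over these 7 genes.

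**Figure D2:**
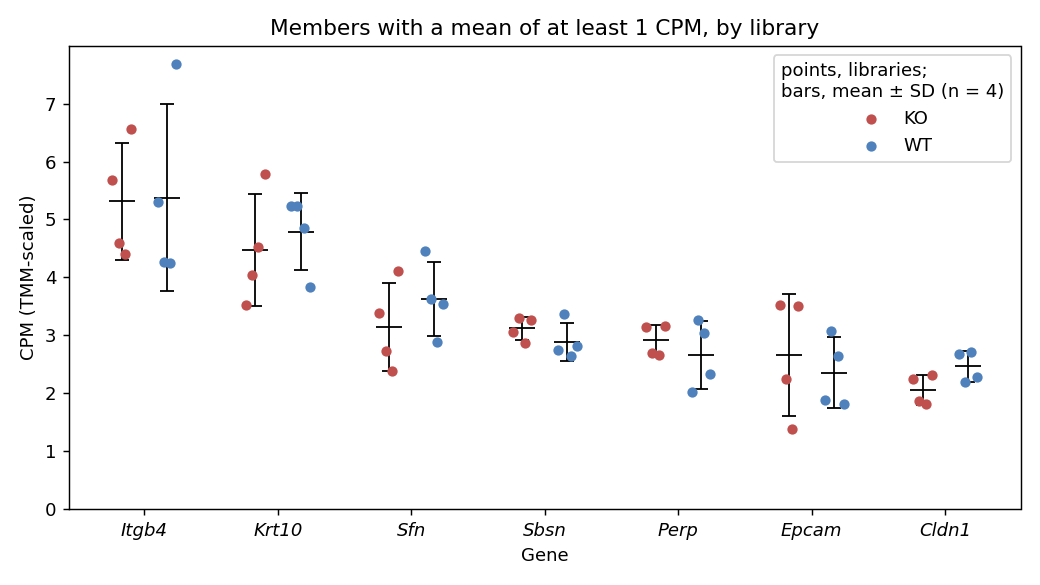
CPM (TMM-scaled, vertical axis) of the 7 genes with a mean of at least 1 CPM; points are libraries, KO left of WT for each gene, and bars are mean ± SD (n = 4). KO and WT points overlap for every gene, and Itgb4 in WT replicate 4 is the highest value at 7.68 CPM.

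The remaining 8 genes that passed the count filter had means of 0.246 to 0.804 CPM. Krt1, the partner of Krt10, was at 0.873 ± 0.232 CPM in KO and 0.734 ± 0.0932 CPM in WT (SD, n = 4 each). Trp63, encoding p63, ranged from 8 to 23 counts in KO and from 2 to 29 in WT, with its lowest value in WT replicate 3. Krtdap, a secreted peptide of differentiating keratinocytes, was at 0.368, 0.266, 0.791 and 1.36 CPM in KO, against 0.810, 0.120, 0.380 and 0.0828 CPM in WT. WT replicates 2 and 4 lay below every KO library, and WT replicate 1 lay above KO replicates 1 to 3. Lgals7, encoding galectin-7, a lectin of stratified epithelia, was at 0.520, 0.319, 0.791 and 0.816 CPM in KO, against 0.247, 0.289, 0.693 and 0.373 CPM in WT, with WT replicates 1 and 2 below every KO library and WT replicates 3 and 4 inside the KO range. Cdh1, which encodes E-cadherin, was highest in KO replicate 4 (1.28 CPM) and WT replicate 1 (1.08 CPM), against 0.319 to 0.505 CPM in the other 6. Lamb3, a chain of the basement membrane protein laminin-332, averaged 0.470 ± 0.180 CPM in KO and 0.561 ± 0.248 CPM in WT, and Krt79, a keratin of the upper hair follicle, averaged 0.480 ± 0.283 CPM in KO and 0.489 ± 0.197 CPM in WT (SD, n = 4 each).

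The comparison of genotypes called none of the 32 genes. In edgeR's quasi-likelihood test over the whole table, 1.32% of the 17743 tested genes were called at an adjusted p under 0.05 (79 higher, 0.445%, and 155 lower, 0.874%, in KO; scaled by library totals alone, 113 higher and 99 lower). Of the 32 genes, 15 entered the test, with 0 called and 0 at an unadjusted p under 0.05, where 17.4% of all tested genes stood. DESeq2 gave an adjusted p to 8 of the 32 and called none. It left Krt5 alone at an unadjusted p under 0.05 (log2 fold change 3.41, with no adjusted value given). With limma-voom, none of 15 was called and none was at an unadjusted p under 0.05. Of all genes given an adjusted p, DESeq2 called 6.29% and limma-voom 1.29%. No gene of the 32 had KO libraries that all lay on 1 side of the WT libraries, against 10.6% of the tested genes and 1.97% of the genes below the filter. The log2 fold changes of the 15, KO over WT, ran from -0.27 to 0.97 with standard errors of 0.145 to 0.712, and their median was -0.02, beside 0.00 over all tested genes.

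**Figure D3:**
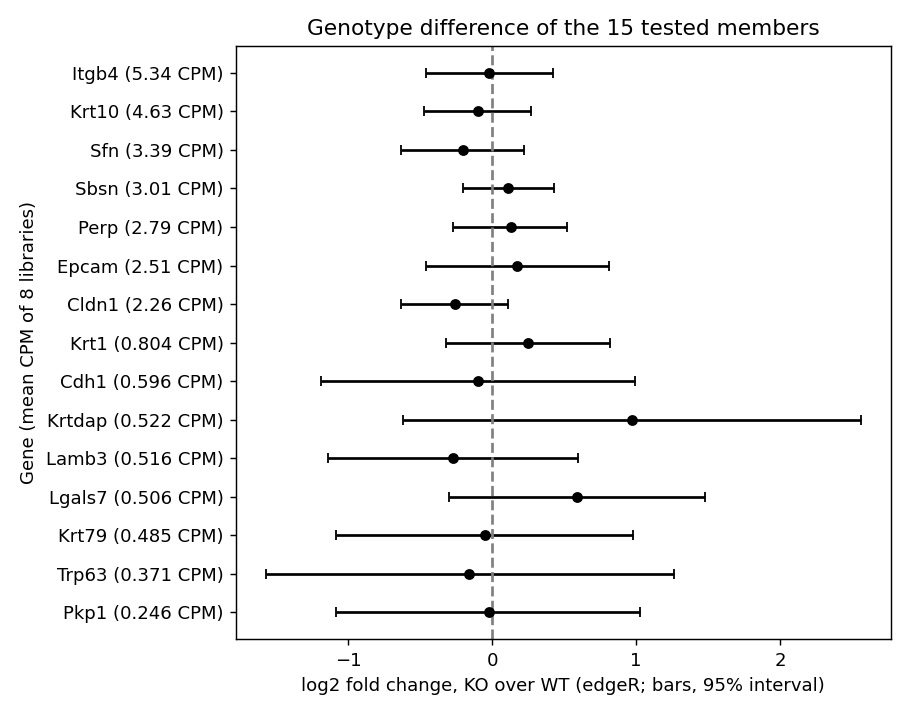
Log2 fold change, KO over WT (horizontal axis), of the 15 tested genes ordered by mean CPM (vertical axis, highest at the top); bars are 95% intervals from the edgeR fit. Every interval includes 0, with the narrowest at -0.20 to 0.43 for Sbsn and the widest at -0.62 to 2.56 for Krtdap.

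The intervals give the differences that these libraries did not exclude. For Sbsn the log2 fold change was 0.11 ± 0.145 (SE; edgeR adjusted p = 0.74), and the 95% interval ran from 0.868-fold to 1.34-fold. For Krt10 it was -0.10 ± 0.171 (adjusted p = 0.803, 0.72-fold to 1.21-fold) and for Itgb4 -0.02 ± 0.203 (adjusted p = 0.973, 0.726-fold to 1.34-fold). Over the 7 genes of at least 1 CPM, the interval bounds lay between 0.647-fold and 1.75-fold, so a 2-fold difference in either direction was outside every one of these intervals. The 3 smallest p-values belonged to Cldn1 (log2 fold change -0.26 ± 0.169, adjusted p = 0.453), Lgals7 (0.59 ± 0.41, adjusted p = 0.487) and Krtdap (0.97 ± 0.712, adjusted p = 0.517). Among the 8 lower genes the bounds reached 0.337-fold for Trp63 and 5.89-fold for Krtdap, so differences up to that size were not excluded for those genes.

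For the 17 genes below the filter, an exact two-sided permutation test of CPM over the 8 libraries gave p from 0.0571 to 1 (0.971 to 1 after adjustment over the 17), where the smallest p that 4 libraries against 4 allow is 0.0286. The p of 0.0571 belonged to Krt5, at 0.121 ± 0.0919 CPM in KO and 0.0112 ± 0.0224 CPM in WT (SD, n = 4 each). Its summed counts were 22 in KO and 2 in WT, a ratio of 10.7 with an exact 95% interval of 2.64 to 94.1 that covers counting error only; without KO replicate 4 the ratio was 8.54 (1.96 to 77.4). Krt14 summed to 8 counts in KO and 1 in WT (ratio 7.8, interval 1.05 to 346), and to 3 counts in KO without KO replicate 4 (ratio 3.66, interval 0.294 to 192). These intervals treat counts as independent molecules and ignore the spread between animals, which for Krt5 ran from 1 to 10 counts within KO. Neither keratin passed the permutation test (adjusted p = 0.971 for Krt5, unadjusted exact p = 0.257 for Krt14). With the smallest p at 0.0286 and 17 genes in the adjustment, a single gene with fully separated groups could not have passed after adjustment. The adjusted p therefore cannot decide whether Krt5 differed between genotypes. Reads of Krt14 can be shared with the similar Krt16 and Krt17.

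KO replicate 4 held the highest CPM of 11 of the 17 genes below the filter (64.7%) and of 5 of the 15 tested genes. Over all 15905 genes below the filter with a count, that library was the highest for 40.8%, and over all tested genes for 19.3%. The 17 genes summed to 0.779, 0.532, 0.791 and 3.40 CPM in KO, against 1.24, 0.361, 0.738 and 0.766 CPM in WT. The KO mean was 1.38 ± 1.35 CPM with KO replicate 4 and 0.701 CPM without it, and the WT mean was 0.775 ± 0.359 CPM, so the sign of the difference turned on that library. Krt77, a type II keratin of the suprabasal epidermis and sweat ducts, had 21 of its 25 counts there, and Ivl 11 of its 12. Of the 32 genes, 30 had a count in KO replicate 4, against 21 to 26 genes in the other libraries. The larger number of gene IDs with counts in KO replicate 4 moved with these values, and its part in them was not tested.

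**Figure D4:**
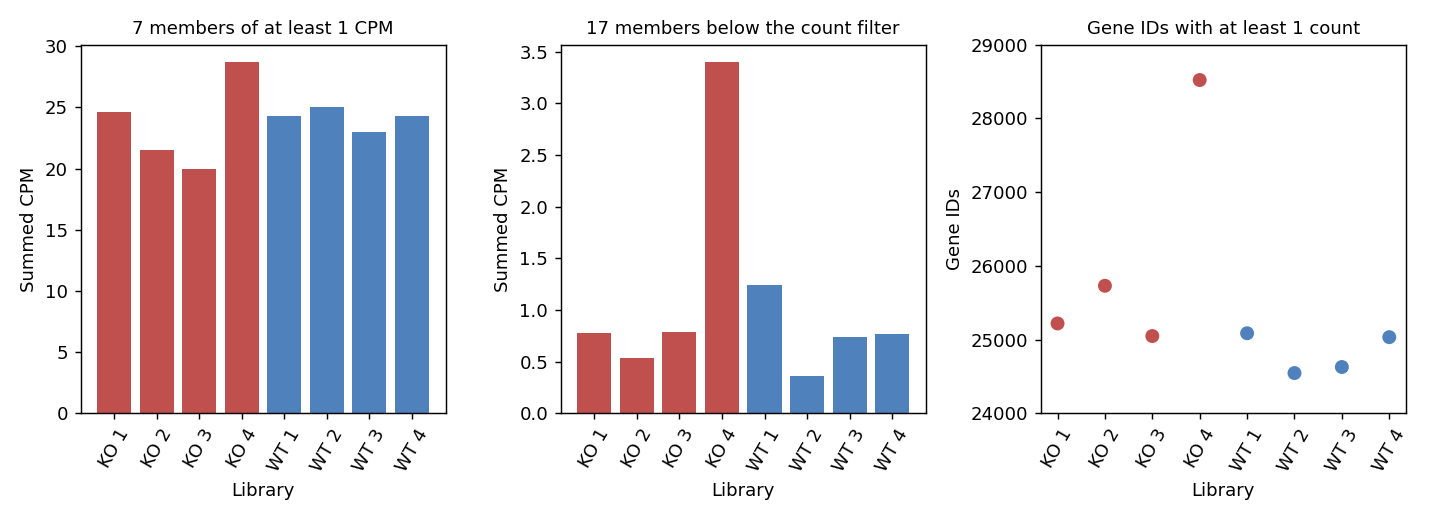
Per library (horizontal axes, KO left of WT): summed CPM of the 7 genes of at least 1 CPM (left), summed CPM of the 17 genes below the count filter (middle) and the number of gene IDs with at least 1 count (right, axis not from 0). KO replicate 4 is highest in all 3 panels, at 28.7 CPM, 3.40 CPM and 28520 IDs.

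The 7 genes of at least 1 CPM differed less between libraries, summing to 24.6, 21.5, 20 and 28.7 CPM in KO, against 24.3, 25, 23 and 24.3 CPM in WT. The KO mean was 23.7 ± 3.83 CPM (22 CPM without KO replicate 4) and the WT mean 24.2 ± 0.845 CPM (SD, n = 4 each). Grouped by role, the 7 basal genes summed to 6.38 ± 1.49 CPM in KO and 6.41 ± 1.97 CPM in WT, most of it from Itgb4. The 10 late differentiation genes summed to 7.95 ± 1.73 CPM in KO and 7.57 ± 0.947 CPM in WT, most of it from Sbsn and Sfn. The 4 suprabasal keratins summed to 5.98 ± 1.55 CPM in KO and 6.03 ± 0.765 CPM in WT, the 8 desmosome genes to 3.77 ± 0.799 and 3.29 ± 0.530 CPM, and the 3 junction genes to 5.30 ± 1.59 and 5.43 ± 0.571 CPM, in KO and WT in that order.

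Type I and type II keratins pair to build filaments, and the partners were not at like levels. Per kilobase of exon, the level of Krt10 was 2.12 ± 0.459 CPM per kb in KO and 2.27 ± 0.315 CPM per kb in WT (SD, n = 4 each). The level of its partner Krt1 was 0.198 ± 0.0526 CPM per kb in KO and 0.166 ± 0.0211 CPM per kb in WT. Krt10 thus exceeded Krt1 12-fold in mean level per exon length. The level of Krt5 was 0.0549 ± 0.0418 CPM per kb in KO and 0.00509 ± 0.0102 CPM per kb in WT, and that of Krt14 was 0.0275 ± 0.0343 CPM per kb in KO and 0.0032 ± 0.0064 CPM per kb in WT, on few counts. Krt7, a keratin of simple epithelia, was at 0.468 ± 0.078 CPM per kb in KO and 0.614 ± 0.146 CPM per kb in WT, which put Krt10 4.05-fold higher. The length used was that of all annotated exon bases of a gene, 2114 for Krt10, 4415 for Krt1 and 7049 for Krt7. Without division by length, Krt10, Krt1 and Krt7 averaged 4.63, 0.804 and 3.81 CPM over all libraries. The ratios per kilobase therefore depend in part on this choice of length. An annotated gene on the opposite strand, Gm11940, covers 6.91% of the Krt10 exon bases but had 26 counts in all libraries together, beside 1657 for Krt10. For Sbsn the overlapping gene is Tmem147os, on the same strand, over 7.7% of its exon bases, with 184 counts beside 1090.

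**Figure D5:**
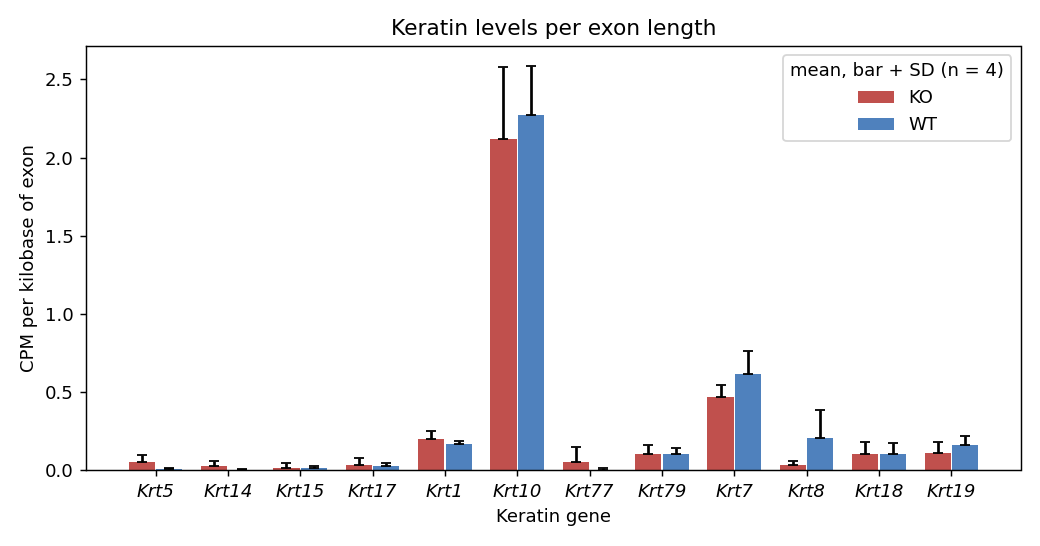
Level per exon length (CPM per kilobase, vertical axis) of 12 keratin genes, KO left of WT; bars are means and whiskers 1 SD upward (n = 4). Krt10 stands at 2.12 in KO and 2.27 in WT, followed by Krt7, while Krt5 and Krt14 are close to 0.

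Other genes of the keratinocyte ranged from abundant adhesion genes to genes with no counts. Of 53 further keratinocyte genes, 21 were tested, none was called in edgeR, DESeq2 or limma-voom, 2 had an unadjusted p under 0.05 in edgeR, and the median log2 fold change was -0.06. The 4 highest are known from many tissues. Itga6, the integrin alpha chain that pairs with Itgb4, was at 64.8 ± 8.14 CPM in KO and 67.6 ± 4.10 CPM in WT, Jup, encoding plakoglobin, at 32.7 ± 5.08 and 33.7 ± 2.65 CPM, Cdh3, encoding P-cadherin, at 7.73 ± 1.62 and 8.51 ± 0.864 CPM, and Lama3, a laminin chain, at 7.22 ± 0.511 and 7.90 ± 2.51 CPM, in KO and WT in that order (SD, n = 4 each). Several genes of the cornified envelope and its assembly lay in between, and 9 of the 53 had a mean of at least 1 CPM and 27 a count in every library. Lor, encoding loricrin, a main envelope protein, had 45, 39, 49 and 76 counts in KO, against 45, 72, 61 and 54 in WT, at 1.21 ± 0.597 CPM in KO and 1.31 ± 0.319 CPM in WT. Every library thus held Lor counts, while Ivl and Flg had none in most. Evpl, encoding envoplakin, averaged 2.74 ± 0.582 CPM in KO and 2.87 ± 0.571 CPM in WT, and Tgm1, the transglutaminase that cross-links the envelope, averaged 0.999 ± 0.478 CPM in KO and 1.04 ± 0.219 CPM in WT (SD, n = 4 each). The log2 fold changes were -0.12 ± 0.321 for Lor, -0.07 ± 0.201 for Evpl and -0.06 ± 0.316 for Tgm1 (SE; not called by edgeR). These 3 genes were chosen after their values were seen. At the other end, 6 of the 53 had no count in any library and 15 had at most 3 counts in any library. The 6 were Hrnr, Crct1, Lce1m, Sprr1b, Krt6b and Klk5, and the 15 also included Flg2, Casp14, Cnfn, Alox12b and Sprr2d.

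Hair follicle genes were scarce in both genotypes. Of 26 listed genes in the table, 4 were tested and none was called in edgeR (0 at an unadjusted p under 0.05), DESeq2 or limma-voom, with a median log2 fold change of -0.01; 7 had no count in any library and 14 had at most 3 in any library. The tested genes were Tchh, which encodes trichohyalin of the inner root sheath, Lgr5, a stem cell receptor of the follicle and other tissues, S100a3, a calcium-binding protein of the hair cuticle, and Lhx2, a transcription factor of follicle progenitors and forebrain. Tchh averaged 1.67 ± 0.287 CPM in KO and 1.87 ± 0.595 CPM in WT (SD, n = 4 each). Lhx2 had 29, 17, 25 and 13 counts in KO, against 113, 22, 5 and 27 in WT, with WT replicate 1 above the rest. Its log2 fold change was -1.02 ± 0.769 (SE) and was not called. KO replicate 4 alone held 30 counts of Foxn1, a regulator of hair keratinisation, and 21 of Krt27, an inner root sheath keratin. The other 7 libraries held 1 and 0, and these 2 genes were chosen after their values were seen. Over all genes below the filter with a count, 16.3% had counts only in KO replicate 4. Another listed follicle gene, Sox21, had 53 counts in WT replicate 1, against 0 to 3 elsewhere.

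Some markers of other tissues of the head were high in single libraries. Of 10 melanocyte genes 2 were tested and none was called (0 at an unadjusted edgeR p under 0.05, 0 called by DESeq2 and limma-voom). The 2 tested genes, Slc24a5 and Pmel, were spread over all libraries, at 80 to 143 and 54 to 69 counts. Both overlap more abundant genes on the opposite strand. Myef2 covers 39.5% of the Slc24a5 exon bases, with 19748 counts beside 937. Dgka and Cdk2 cover 4.58% and 1.48% of the Pmel exon bases, with 7495 and 16706 counts beside 498. The share of Slc24a5 and Pmel counts from these neighbours was not tested. Dct had 41 counts and Tyrp1 34 in WT replicate 3, against at most 3 and 4 in the others. Tyr, Slc45a2 and Mlana were also highest in WT replicate 3, at 8, 13 and 5 counts. Oca2 and Mc1r were highest in KO replicate 4, at 14 and 10 counts, and Gpr143 in KO replicate 2, at 8 counts. In WT replicate 3, Krt5 had 2 counts and Krt14 none. WT replicate 1 was the highest for Foxj1, a regulator of motile cilia, at 142 counts against 20 to 33 elsewhere, as it was for Dmkn at 24 against 1 to 8. Foxj1 was listed with the airway and oral genes. Of these, Bpifb1 and Reg3g were also highest in WT replicate 1, at 12 and 21 counts against 2 to 9 and 7 to 20 elsewhere. Krt4, Krt13, Scgb1a1, Muc5b, Cyp2f2 and Sec14l3 were highest in other libraries by CPM, and Bpifa1 had no count. Of 5 choroid plexus genes, Ttr was highest in WT replicate 1, at 119 counts against 1 to 28 elsewhere, while the other 4 (Clic6, Kl, Folr1 and Otx2) were highest in KO replicate 4 by CPM. None was called among 2 tested of 10 airway and oral genes, 3 tested of 5 choroid plexus genes or 2 tested of 4 simple epithelium genes, in edgeR, DESeq2 or limma-voom; 1 of these, an airway and oral gene, had an unadjusted edgeR p under 0.05. Krt8, a keratin of simple epithelia, had 3, 1, 1 and 5 counts in KO, against 33, 28, 5 and 5 in WT, with WT replicates 1 and 2 above the others. The other listed simple epithelium genes did not repeat this pattern. Krt18 had 5, 9, 13 and 1 counts in KO, against 13, 6, 3 and 4 in WT. Krt19 had 9, 5, 7 and 14 counts in KO, against 19, 14, 10 and 10 in WT. Krt7 was highest in WT replicate 3, at 251 counts. All 12 macrophage genes had a log2 fold change below 0, with 10 at an unadjusted p under 0.05 and 4 called lower in KO by edgeR; 1 of the 11 osteoblast genes was called lower, beside 0.874% of all tested genes. Whether any of these tissues contributed to the levels of the epidermal genes was not tested.

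The 15 tested genes differed in their profiles across libraries. Distances were root mean squares over the 8 libraries around the median profile of the 15, centred on the log2 scale. The distance was 0.179 for Sfn, the nearest, 0.332 for the median gene and 1.07 for Krtdap, the farthest. The median over 15788 other genes was 0.279, but these were limited to a mean of at least 0.5 CPM. Trp63 (0.371 CPM), Krt79 (0.485 CPM) and Pkp1 (0.246 CPM) lie below that limit, so the 2 medians are not on like terms. The median profile itself stood at 0.12, -0.26, -0.25 and 0.41 in KO, against 0.04, 0.12, -0.18 and -0.11 in WT, highest in KO replicate 4. The nearest genes included Yipf3, Ogfod2, Yif1b, Egln2, N4bp3, 2310011J03Rik, Bcl7c, Galk1 and Rcn3, at distances of 0.0641 to 0.0775, and none of them is in the gene lists used here.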

How the data were processed

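The authors deposited unnormalized read counts for 8 libraries, indexed by Ensembl ID. The submitters' processing notes name featureCounts (Subread 1.5.2), STAR 2.5.2b, bcl2fastq 2.17 and build mm10. No annotation release or strand setting is stated there, so a gene and its antisense partner may share reads. Per the labels' protocols, the library kit was NEBNext Ultra II RNA.

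Groups came from sample titles. Genes passing edgeR's filterByExpr (minimum count 10, total 15) were scaled with TMM factors (0.972 to 1.04) and compared by edgeR's quasi-likelihood F test (version 4.0.16, robust setting, under R 4.3.3), two-sided, with p-values adjusted by Benjamini-Hochberg over 17743 genes and a threshold of 0.05. CPM used TMM-scaled library sizes. Intervals are 95% intervals. Genes below the filter had an exact permutation test of CPM. Exon lengths (all annotated exon bases of a gene, each counted once) and coordinates came from GENCODE M21 (GRCm38), promoters from RefSeq. The test was tried on simulated counts drawn independently for each library, and no result given here rests on that trial. The labels give 4 mice a group but no litters, so whether the libraries of a group are independent by litter is not known. The p-values set the group difference against the spread between these libraries.

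The 32 genes and all lists were chosen with earlier results of these data known. The rule for named genes took the 6 genes of highest mean CPM, any called gene and the 3 of smallest p, with values in every library, and up to 4 genes of each other list by calls, then level. Other genes of those lists, and the other members given library by library, were chosen after their values were seen. Of the 10 genes nearest in profile, 1 is not reported here. Alternatives were library totals, RLE factors, other filters, DESeq2 1.42.0, limma-voom (limma 3.58.1), a muscle covariate, a block for replicate number, and single libraries omitted in turn. Plots were made in matplotlib 3.10.9.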

Additional observations from a re-analysis of the deposited data

Results flagged for a closer look

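Within groups of 4 libraries, 17 of 62 gene and group combinations contained 1 library well separated from its group. Most of them rest on 0 to 11 counts, where a pattern such as 0, 0, 0 and 1 always meets the criterion, so the 3.1 that chance gives for continuous values does not apply. KO replicate 4 accounted for 9 of the 17, as the highest library. Its values were 0.571 CPM for Krt77, 0.299 for Ivl, 0.299 for Dsc3, 0.109 for Krt15, 0.0816 for Dsc1, 0.0544 for Dsg3, 0.0272 for Flg, 0.0272 for Dsg1a and 1.28 for Cdh1. Among WT libraries, replicate 1 was apart for Dmkn (0.540 CPM), Krt77 (0.0450 CPM), Krt14 (0.0225 CPM) and Dsc1 (0.0225 CPM), and replicate 2 for Ivl (0.0240 CPM). WT replicate 3 was apart for Krt5 (0.0447 CPM) and Dsg1a (0.0447 CPM), and was the lowest for Sprr1a at 0 CPM, against 1 count in each other WT library.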

How the results depend on the processing

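None of the 32 genes, the 53 other keratinocyte genes or the 26 hair follicle genes was called under any alternative run, including each library left out. The median log2 fold change of the 15 tested genes ran from -0.17 to 0.19 with single libraries left out. The 12 macrophage genes had 4 lower calls in edgeR and 8 in DESeq2. Over the whole table, 234 genes were called (79 higher and 155 lower in KO). DESeq2 called 954 (369 higher, 585 lower), no filter 355 (248 lower), library totals 212 (113 higher, 99 lower), and the replicate block 126 (22 higher). Leaving out single libraries gave 57 to 608 calls (16 to 305 higher, 41 to 303 lower): 57, 82 and 608 without KO replicates 2, 3 and 4, and 79, 75 and 105 without WT replicates 2, 3 and 4. The smallest adjusted p of any of the 15 under any alternative was 0.242, in edgeR, for Krtdap without WT replicate 1. The labels do not state whether replicate numbers pair the libraries. Same-numbered deviations correlated at 0.255, -0.179, 0.34 and -0.00498, against -0.536 to 0.556 for the other combinations. So few values cannot settle whether the libraries are paired.

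Signs turned for uncalled genes near 0. Trp63 was at 0.08 in limma-voom, 0.33 with the muscle covariate and -0.55 to 0.21 without single libraries (KO 2, KO 3, WT 1 or WT 4 turned it). Itgb4 was at 0.03 with library totals, 0.03 with the muscle covariate, 0.01 with the replicate block and -0.13 to 0.20 without single libraries (KO 2, KO 3, WT 4). Krt79 was at 0.08 with the muscle covariate and -0.41 to 0.27 (KO 2, KO 3, WT 2), Pkp1 at 0.03 with library totals and -0.19 to 0.28 (KO 3, WT 2), and Cdh1 at 0.01 with the muscle covariate and -0.79 to 0.33 (KO 1, KO 2, KO 3, WT 1). In CPM, KO minus WT without single libraries, 5 differences turned below 0 without KO replicate 4: Ivl (-0.00601 to 0.0937), Calml3 (-0.00268 to 0.106), Dsc1 (-0.00562 to 0.0216), Dsc3 (-0.0224 to 0.0773) and Krt15 (-0.0272 to 0.00908, also WT 2 and WT 3). Krt17 (-0.0299 to 0.0228) and Pkp3 (-0.0522 to 0.0029) turned without KO 3, Krt17 also without WT 1, Dmkn (-0.1 to 0.0728) without WT 1, Dsg1a (-0.0112 to 0.0068) without WT 3 and Grhl3 (-0.0407 to 0.000761) without WT 4. The cause was not tested.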
